A study of Mus musculus with 4 samples.

Results

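The genes described here encode the proteins that build and use the Sm and LSm rings of small RNA-protein particles: the Sm proteins (Snrp genes), the Sm-like LSm proteins, the SMN complex that loads Sm rings onto small nuclear RNAs, and the enzymes and import factors that act with it. All gene names in the deposited table that begin with Snrp, are Lsm with a number and an optional a or b, or are Gemin with a single digit were taken, together with Smn1, Ddx20, Strap, Prmt5, Clns1a and Snupn. This gave 38 of the 32681 genes in the table. RNA was sequenced from 4 primary neuronal cultures made from the neocortex of wild-type CD-1 mice at embryonic day 13. Control short hairpin RNA (shRNA) was transfected into 2 of the cultures, and DcpS shRNA into the other 2, both of whose titles carry the hairpin name shDcPS-2. All 4 cultures were grown in Neurobasal medium with B27 supplement. The sources used here do not give the embryos per culture, the time after transfection or the share of cells transfected. Whether the libraries of a group come from different litters is not stated either, so each p-value reflects only how these samples vary, and that variation may be technical.

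In the nucleus, the spliceosome is assembled from small nuclear RNAs, most of which carry a ring of Sm proteins around a uridine-rich site. The ring is put on in the cytoplasm: the methylosome, with the arginine methyltransferase PRMT5 and the chaperone pICln (Clns1a), prepares Sm proteins, and the SMN complex then places them on the RNA. The LSm proteins form related rings, one of which (LSm2 to LSm8) stays on U6 RNA in the nucleus while the other (LSm1 to LSm7) binds the 3′ ends of mRNAs that are about to be decapped. Loss of SMN causes the motor neuron disease spinal muscular atrophy. DcpS removes the cap structure that remains once an mRNA has been degraded from its 3′ end, and it is the target of quinazoline compounds that came out of screens for higher SMN expression.

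The targeted gene was lower in both knockdown libraries. Dcps had normalised read counts of 499.8 and 506.6 with control shRNA and 114.5 and 119.6 with DcpS shRNA (log2 fold change −2.10, SE 0.11; limma, Benjamini-Hochberg adjusted p 1.52e-08). The libraries held 17754768 to 21793685 reads. Neuronal markers were abundant in all 4 libraries: Tubb3, Map2, Dcx, Rbfox3, Neurod2, Neurod6, Tbr1, Slc17a7 and Slc17a6 summed to 4565 and 4453 CPM (counts scaled to the library total) in the controls, compared with 4358 and 4256 after DcpS shRNA. Of these 9, Slc17a7 (log2 fold change 0.52; limma, Benjamini-Hochberg adjusted p 8.08e-05) and Rbfox3 (0.24, adjusted p 0.0261) were called higher and 0 lower. The cultures were not purely neuronal. The 5 fibroblast markers summed to 517 and 572 CPM in the controls, compared with 321 and 307 CPM after DcpS shRNA, and all 5 were called lower. The 5 astrocyte markers summed to 190.0 and 199 CPM against 158 and 168 CPM, with 3 called lower. Markers of radial glia and intermediate progenitors summed to 449.8 to 503 CPM, those of the oligodendrocyte lineage to at most 21.5 CPM, of interneurons to 10.2 to 11.5 CPM, of microglia to 3.90 to 5.41 CPM and of endothelial cells to 3.55 to 6.27 CPM. In the other lists Mbp was called higher and Pdgfra and Kdr lower. Sox10 was at 0 in both controls, P2ry12 and Cldn5 in control 2 and DcpS shRNA 2, and Tek in DcpS shRNA 2. The part of these cell types in the values below was not tested, and in bulk RNA fewer cells of a type and less RNA per cell cannot be told apart.

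The question was whether depletion of DcpS changes the RNA levels of this machinery. None of the 37 genes that could be tested was called at an adjusted p under 0.05 (limma, Benjamini-Hochberg over all genes tested), where 5.79% of all 18110 tested genes were called, 2.14% higher and 3.65% lower. At an unadjusted p under 0.05, 4 of the 37 passed, against 18.7% of all tested genes. These were Gemin2, Lsm12 and Clns1a, with higher values, and Prmt5, with lower ones. On the recovered reads edgeR called 0 of the 37, with 3 at an unadjusted p under 0.05, and it called 1077 over all genes. DESeq2 called 0 of the 37, with 2 at an unadjusted p under 0.05. It called 448 over all genes, fewer than the 1048 of the main test, so its 0 says less. The share of all genes at an unadjusted p under 0.05 is not given here for these 2 methods. The fold changes were small. They ran from −0.12 to 0.22 on the log2 scale with a median of 0.06, beside a median of 0.00 over all tested genes, and 30 of 37 were above 0, beside 50.2% of all tested genes.

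The 8 Sm ring genes were the most abundant group, with a median level of 140.2 TPM, against 49.6 TPM for the 8 LSm ring genes and 23.0 TPM for the 8 tested genes of the SMN complex. The scale here is TPM, and levels are means of the 4 libraries. TPM divides reads by the exon length of each gene, the merged exons of all its transcripts in GENCODE M21 (GRCm38). That length can exceed the expressed mRNA. Lsm8 has 4199 exon bases, with 303 coding bases and a longest 3′ UTR of 362, and Snrpd2 has 2618, with 357 and 892. Levels of such genes may be understated, so rankings of genes and groups depend on the annotation. Values per exon kilobase below use the same lengths. Snrpb, which encodes SmB, had the highest level, 243 TPM, and Snrpe (SmE) followed with 230 TPM. The next were Strap, a WD-repeat protein of the SMN complex (213 TPM), Lsm14b, an RNA-binding protein of cytoplasmic granules (206 TPM), and Lsm4 (154 TPM). The median over the 37 tested genes was 54.8 TPM. The least abundant protein-coding gene among them was Lsm11, a subunit of the ring on U7 RNA, at 11.8 TPM.

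**Figure D1:**
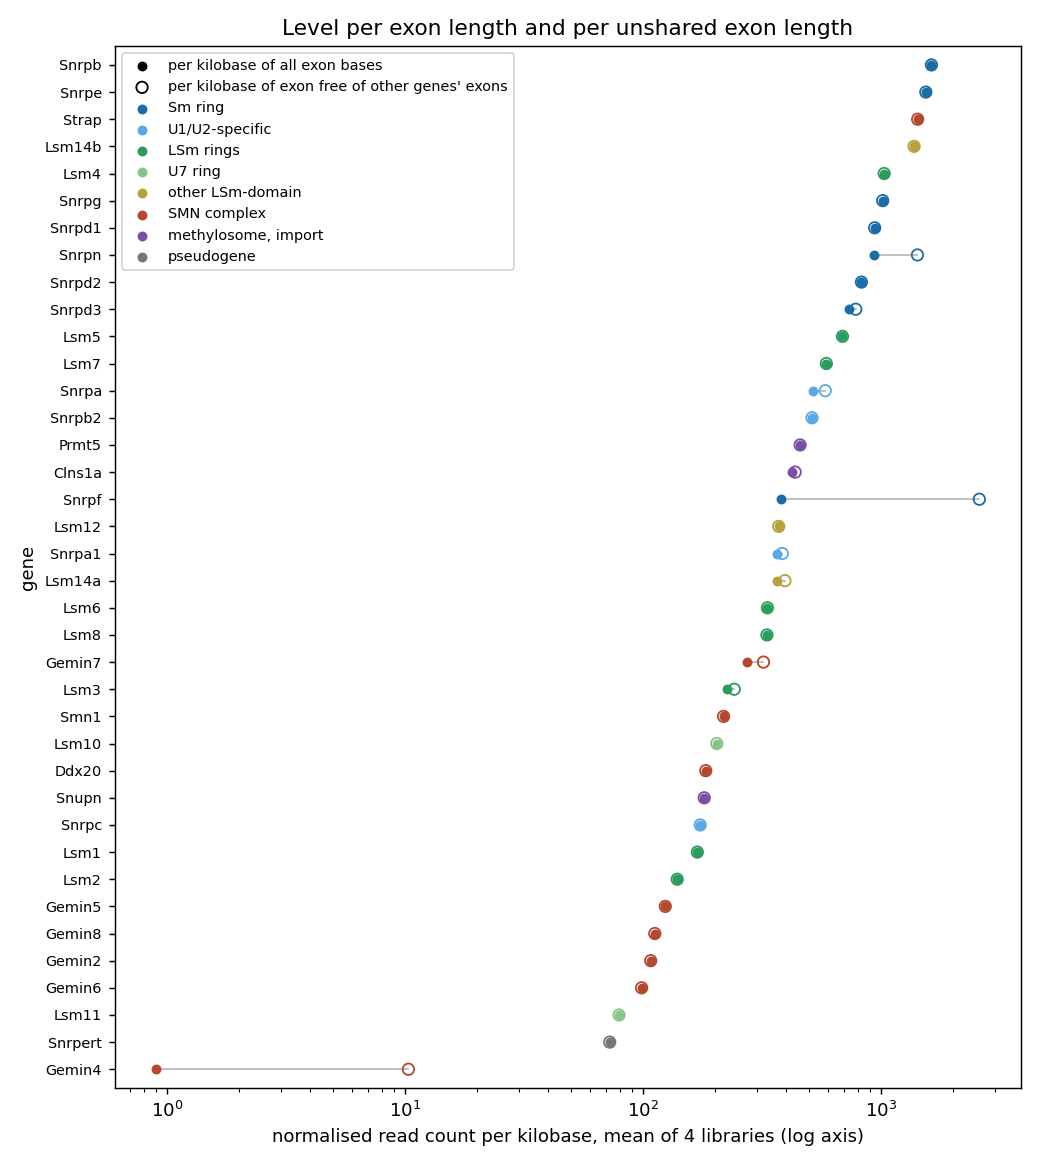
Mean normalised read count of the 4 libraries per kilobase of exon (filled) and per kilobase of exon that no other annotated gene's exons cover on either strand (open), on a log axis, 1 row per gene, coloured by role. Most pairs coincide, while those of Gemin4, Snrpf and Snrpn lie apart. Both symbols use all reads counted for a gene, so an open symbol is not a corrected level.

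Some of these levels are uncertain because exons are shared with other genes. In 28 of the 38 genes every exon base was free of other genes' exons in GENCODE M21. Gemin4 (chromosome 11, 76210571 to 76217664, minus strand, GRCm38), a subunit of the SMN complex, was the extreme: 324 of its 3734 exon bases (8.68%) were free, and 99.7% of its coding sequence lay, at 100% identity, inside an annotated transcript of Glod4, a gene that overlaps it. Gemin4 was listed with 3 and 1 reads in the controls and with 8 and 2 reads after DcpS shRNA, and it was the 1 gene of the 38 too low to test. Glod4 had 721 and 726 normalised read counts in the controls, compared with 719 and 816 after DcpS shRNA. How reads in shared exons were counted is not given, so the low value of Gemin4 is not a measure of its expression.

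Snrpf, which encodes SmF (chromosome 10, 93583029 to 93589706, minus strand), stood below the other Sm genes. It had 379 normalised read counts per exon kilobase, while the other 7 Sm ring genes had 730 (Snrpd3) to 1628 (Snrpb). All of its exon bases were free of exons on its own strand, but 126 of 861 (14.6%) were free when both strands were considered, the main overlap being with Ccdc38. Per kilobase of free exon its value was 2587. That value divides all reads counted for Snrpf by its free bases alone. It would be a level of Snrpf only if no reads in the shared bases had been counted, which is not given. Snrpn also shared exon bases, with 65.9% free when both strands were considered and 72.7% free of exons on its own strand. Unlike that of Snrpf, its overlap thus lay partly on its own strand.

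Other members have near-identical copies. Of the 37 genes with a coding sequence, 18 had at least 1 annotated pseudogene that matched at least 50% of it at 90% identity or more, 44 such copies in all. In the table the copies of Lsm7 together had 28.6% of the value of Lsm7 itself, those of Snrpc 15.5%, of Gemin8 9.43%, of Gemin6 7.53%, of Snrpg 6.50% and of Lsm5 6.13%. Each of the others with copies was at 5% or less. Reads of such pairs may be exchanged, since the treatment of reads that fit several places is not given.

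The following pairs show how close these copies are, as 30-base windows of the coding sequence from GENCODE M21 transcripts (GRCm38, mRNA strand, 5′ to 3′). Positions count from 1 at the first base of the start codon, and capitals mark bases that differ within a pair. Snrpe and Snrpert, a processed pseudogene on chromosome 2 that the naming rule includes, differ at 3 of 279 bases (G178A, G228A and T271C, with the base of Snrpe first), and the window covers bases 163 to 192.
Snrpe: aacctcgtattagatGatgcagaagagatt
Snrpert: aacctcgtattagatAatgcagaagagatt
Lsm7 and its pseudogene Gm10146 are identical over all 309 aligned bases, and bases 1 to 30 are shown.
Lsm7: atggcggacaaagagaaaaagaagaaagaa
Gm10146: atggcggacaaagagaaaaagaagaaagaa
Snrpb and Snrpn, which encode SmB and its neuronal relative SmN, match at 80.9% of 686 aligned bases, and their longest identical run is 32 bases. The window covers bases 43 to 72 of Snrpb and holds 6 differences.
Snrpb: taCaggatgagGtgCatcctgcaGgaCggC
Snrpn: taTaggatgagAtgTatcctgcaAgaTggG
Snrpert, at 18.1 and 19.5 normalised read counts in the controls, compared with 20.9 and 22.3 after DcpS shRNA, was the least abundant of the 37, and its interval was the widest (95% interval of the log2 fold change −0.46 to 0.85). Gm10146 had 218 and 239 normalised read counts in the controls, compared with 266 and 245 after DcpS shRNA.

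The Sm ring is shared by the U1, U2, U4 and U5 particles and by those of the minor spliceosome. Its 8 genes, counting Snrpn as the alternative to Snrpb, summed to 15954 and 15348 normalised read counts in the controls, compared with 15815 and 16403 after DcpS shRNA, so the groups overlapped. Snrpb had 3407 and 3012 in the controls, compared with 3344 and 3103 after DcpS shRNA, and its log2 fold change was 0.01 (SE 0.06). Within each group the first library was the higher one for Snrpb, by more than the groups differed. Snrpe, at 2104 and 2091 against 2096 and 2170, and Snrpd2 (SmD2), at 2207 and 2162 against 2070 and 2220, also overlapped. Snrpd3 (SmD3) had 2516 and 2396 in the controls, compared with 2544 and 2594 after DcpS shRNA, and Snrpg (SmG) had 1555 and 1571 against 1595 and 1658. In both, the knockdown libraries lay just above the controls.

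For Snrpd1 and Snrpf, as for every other Sm ring gene except Snrpb, the second DcpS shRNA library had the highest value of the 4. Snrpd1 (SmD1) had 1907 and 1848 in the controls, compared with 1890 and 2068 after DcpS shRNA. Snrpf had 321 and 284 in the controls, compared with 324 and 374 after DcpS shRNA, a log2 fold change of 0.21 (SE 0.10; limma, Benjamini-Hochberg adjusted p 0.308). Over the same libraries Ccdc38, whose exons overlap those of Snrpf on the other strand, had 17.1 and 18.5 normalised read counts in the controls, compared with 28.2 and 36.9 after DcpS shRNA. The part of that overlap in the value of Snrpf was not tested.

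SmN is a form of SmB found mainly in neurons. Snrpn (chromosome 7, 59982495 to 60140219, minus strand), an imprinted gene expressed from the paternal allele in brain, takes the place of SmB in many neuronal particles. It had 1936 and 1984 normalised read counts in the controls, compared with 1953 and 2214 after DcpS shRNA, so the second knockdown library stood alone. Gm38393, the main gene whose exons overlap those of Snrpn, had 556 and 619 in the controls, compared with 554 and 448 after DcpS shRNA. It was thus lowest in the library where Snrpn was highest. The part of that overlap in the values of Snrpn was not tested. Of the summed value of Snrpn and Snrpb per exon kilobase, Snrpn made up 34.2% and 37.6% in the controls, compared with 34.8% and 39.5% after DcpS shRNA (35.9% ± 2.40 and 37.2% ± 3.29, SD, n = 2 each), and the groups overlapped. Without the first DcpS shRNA library Snrpn was called higher (log2 fold change 0.18; limma, Benjamini-Hochberg adjusted p 0.0447, against 0.459 to 0.985 over the other alternatives). With all 4 libraries its value was 0.09 (SE 0.06; limma, adjusted p 0.513).

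The proteins particular to U1 and U2 gave 4 genes, with log2 fold changes from −0.02 to 0.10. Snrpa encodes U1-A and had 1528 and 1434 normalised read counts in the controls, compared with 1635 and 1549 after DcpS shRNA. It was the 1 gene of the 4 whose groups did not overlap. Over all tested genes, 24.4% had both knockdown libraries above both controls and 24.0% had both below. Snrpc (U1-C) had 1216 and 1069 against 1097 and 1151, and Snrpa1 (U2-A′) 1168 and 1162 against 1118 and 1202. Snrpb2 (U2-B″) had 1440 and 1453 in the controls, compared with 1449 and 1518 after DcpS shRNA.

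The LSm rings have 8 genes, of which Lsm1 is particular to the cytoplasmic decay ring and Lsm8 to the nuclear U6 ring. Their log2 fold changes ran from 0.00 (Lsm8) to 0.13 (Lsm1). Lsm1 had 523 and 477 normalised read counts in the controls, compared with 569 and 522 after DcpS shRNA, which overlapped by less than 1 count. Lsm8 had 1382 and 1402 in the controls, compared with 1376 and 1408 after DcpS shRNA, and its groups overlapped. Of the summed value of Lsm1 and Lsm8 per exon kilobase, Lsm1 made up 33.9% and 31.6% in the controls. After DcpS shRNA it made up 36.0% and 33.5%, so the share overlapped between groups. The share depends on the exon lengths used, 3093 bases for Lsm1 and 4199 for Lsm8. It therefore compares the groups and does not measure the proportion of the ring-defining subunits.

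Both rings share 6 subunits, none of which was called. Lsm2 (443 and 402 in the controls, 456 and 453 with DcpS shRNA) and Lsm3 (587 and 616 against 649 and 639) did not overlap between groups. Lsm4 (1082 and 1004 against 1119 and 1072), Lsm5 (546 and 529 against 544 and 561), Lsm6 (1397 and 1259 against 1324 and 1448) and Lsm7 (967 and 892 against 996 and 915) did. Of all tested genes, 24.4% had both knockdown libraries above both controls and 24.0% had both below. No LSm ring gene had an adjusted p below 0.455, the value of Lsm1 (limma, Benjamini-Hochberg).

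The U7 particle, which directs the 3′ end processing of replication-dependent histone mRNAs, replaces SmD1 and SmD2 with LSM10 and LSM11. Their values lay on opposite sides of 0. Lsm10 had 187 and 185 normalised read counts in the controls, compared with 201 and 197 after DcpS shRNA (log2 fold change 0.10, SE 0.12). Lsm11 had 526 and 523 in the controls, compared with 499 and 496 after DcpS shRNA (−0.08, SE 0.08). In neither gene did the groups overlap, and in both the difference was smaller than its standard error. Such separation, with the knockdown above or below, was seen in 24.4% and 24.0% of all tested genes.

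Among LSm-domain proteins outside the rings, Lsm12 had the smallest p of the 38 genes. Lsm12 (chromosome 11, 102162497 to 102185296, minus strand) had 842 and 800.0 normalised read counts in the controls, compared with 989 and 915 after DcpS shRNA. Both knockdown libraries lay above both controls, with means of 821 ± 29.7 for the controls and 952 ± 52.5 for the knockdown (SD, n = 2 each), a ratio of 1.16. The log2 fold change was 0.21 (SE 0.07; limma, Benjamini-Hochberg adjusted p 0.0784), which did not pass the threshold. Lsm12 passed it in 3 of 14 alternatives, with the lowest adjusted p without DcpS shRNA 2 (log2 fold change 0.27; limma, Benjamini-Hochberg adjusted p 0.0178). Over the other 13 its adjusted p ran from 0.0343 to 0.407. With the set number as a replicate block, where Lsm12 also passed, limma called 8.98% and edgeR 7.65% of all tested genes. Lsm14a and Lsm14b encode RNA-binding proteins of P-bodies and related granules. They had 2224 and 2150 against 2251 and 2341, and 3981 and 3902 against 3990 and 4045, and in both the knockdown libraries lay above the controls by little.

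The SMN complex is the assembly machine. Smn1 (chromosome 13, 100124852 to 100137690, plus strand), the single mouse gene for SMN, had 576 and 544 normalised read counts in the controls, compared with 571 and 568 after DcpS shRNA. Both knockdown libraries lay between the controls. Its log2 fold change was 0.03 (SE 0.08), and its 95% interval of −0.13 to 0.19 corresponds to 0.912-fold to 1.14-fold, so a larger change of Smn1 RNA in these cultures is outside the interval.

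Gemin2, the partner that holds SMN and cradles the Sm proteins, had the largest log2 fold change of the 37 genes. Gemin2 (chromosome 12, 59013393 to 59028470, plus strand) had 233 and 247 normalised read counts in the controls, compared with 273 and 287 after DcpS shRNA. The groups did not overlap, and the means were 240.0 ± 10.2 and 279.9 ± 10.3 (SD, n = 2 each). Its log2 fold change of 0.22 (SE 0.10) had an unadjusted p of 0.0484 and an adjusted p of 0.264 (limma, Benjamini-Hochberg). The share of Smn1 in the summed value of Smn1 and Gemin2 per exon kilobase was 69.7% and 67.2% in the controls, compared with 66.1% and 64.8% after DcpS shRNA.

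None of the remaining subunits was called. Gemin5 recognises the small nuclear RNA and had 801 and 808 normalised read counts in the controls, compared with 838 and 835 after DcpS shRNA. Ddx20, the helicase also called Gemin3, had 780.1 and 700.4 against 757 and 801. Strap had 4247 and 4234 in the controls, compared with 4583 and 4544 after DcpS shRNA, closely paired libraries that gave a log2 fold change of 0.11 (SE 0.05; limma, Benjamini-Hochberg adjusted p 0.269). The small peripheral subunits Gemin6 (126 and 160.0 against 138 and 139), Gemin7 (506 and 473 against 473 and 494) and Gemin8 (269 and 279 against 268 and 298) all overlapped between groups. Gemin6, with at most 156 reads per library, had the widest interval of the protein-coding genes (−0.35 to 0.27 on the log2 scale).

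The methylosome genes lay on opposite sides of 0. Prmt5 (chromosome 14, 54507187 to 54517525, minus strand) methylates arginines in the tails of SmB, SmD1 and SmD3. It had 1888 and 1878 normalised read counts in the controls, compared with 1724 and 1743 after DcpS shRNA. Both knockdown libraries were below both controls, with a difference of −7.91% between the means, and the log2 fold change was −0.12 (SE 0.05), the lowest of the 37 genes (limma, unadjusted p 0.0422, Benjamini-Hochberg adjusted p 0.249). Clns1a (chromosome 7, 97696634 to 97720796, plus strand) had 1494 and 1567 in the controls, compared with 1720 and 1724 after DcpS shRNA, a difference of 12.5% between the means. Its log2 fold change was 0.17 (SE 0.06), with an unadjusted p of 0.00764 and an adjusted p of 0.0938 (limma, Benjamini-Hochberg), so neither gene was called. Snupn encodes snurportin, the adaptor that brings finished particles back into the nucleus. It had 245 and 244 in the controls, compared with 244 and 272 after DcpS shRNA.

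**Figure D2:**
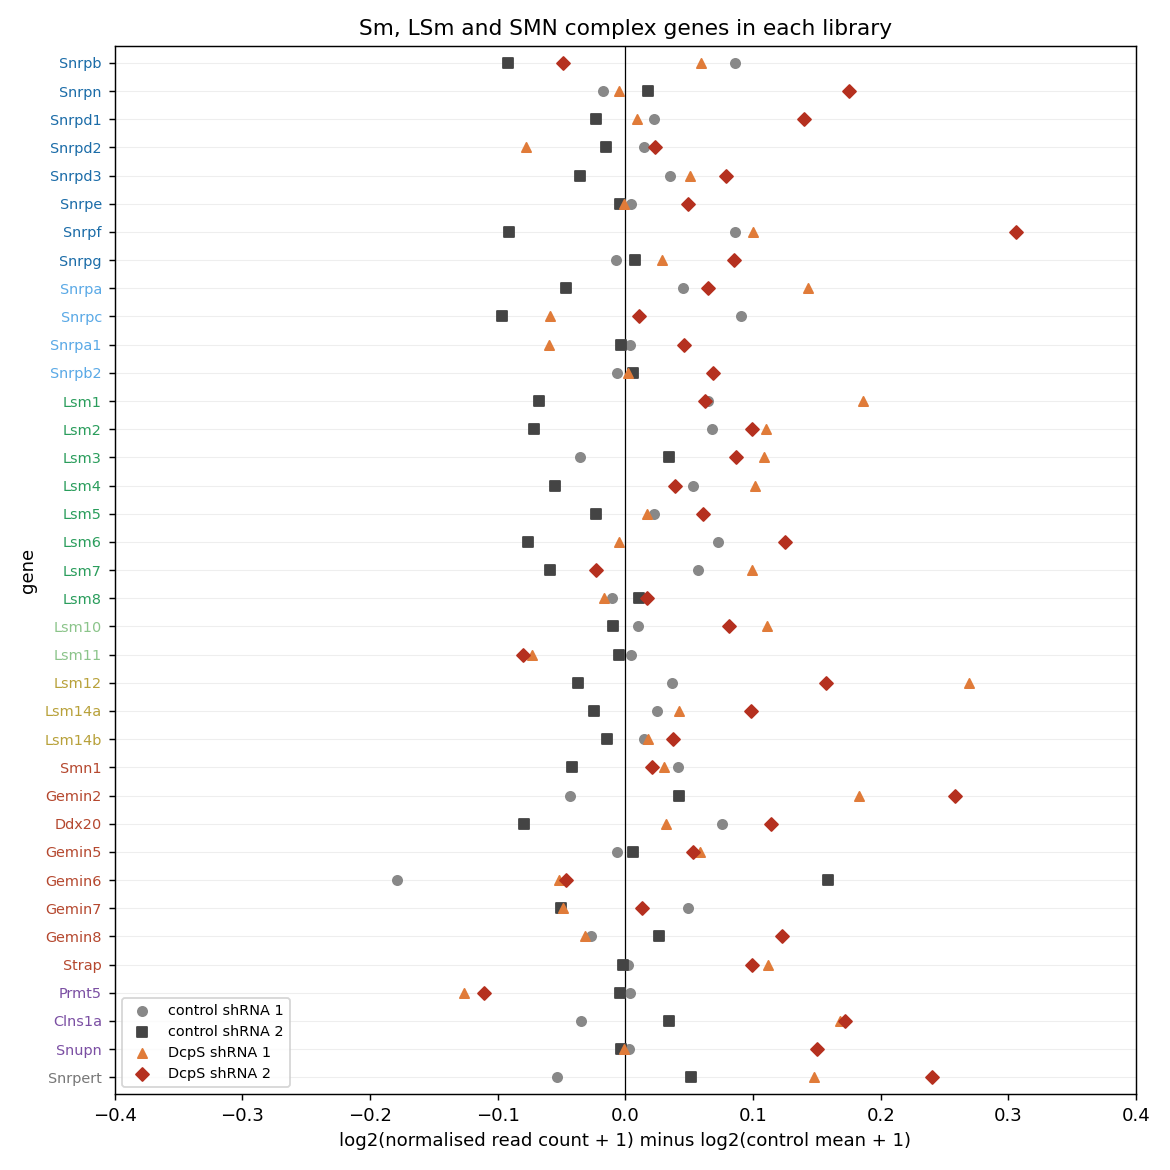
Each tested gene in each library, as log2(normalised read count + 1) minus the log2 of the control mean + 1, with gene names coloured by role. Grey symbols are the 2 control libraries and orange and red symbols the 2 DcpS shRNA libraries; the 2 knockdown libraries of Gemin2, Lsm12 and Clns1a lie to the right of both controls and those of Prmt5 to the left.

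The median difference between group means was about as large as that between the 2 libraries of a group. These are unlike measures, because a difference of means of 2 libraries varies less than a gap between single libraries. Their similar size therefore does not show that the groups are alike. Over the 37 genes the median absolute log2 difference was 0.07 between the controls, 0.06 between the DcpS shRNA libraries and 0.07 between the group means, against 0.10, 0.11 and 0.11 over all tested genes. The difference of group means exceeded both within-group gaps in 13 of 37 genes, which is 35.1%, beside 35.9% of all tested genes. Both knockdown libraries lay above both controls in 15 of the 37 genes and below in 2, where 24.4% of all tested genes lay above and 24.0% below. The libraries of a group were not level for these genes: control 1 was higher than control 2 in 26 of 37, and DcpS shRNA 2 was higher than DcpS shRNA 1 in 24 of 37. Accordingly the number of genes with a log2 fold change above 0 moved with the library left out, from 24 without DcpS shRNA 2 to 32 without DcpS shRNA 1.

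**Figure D3:**
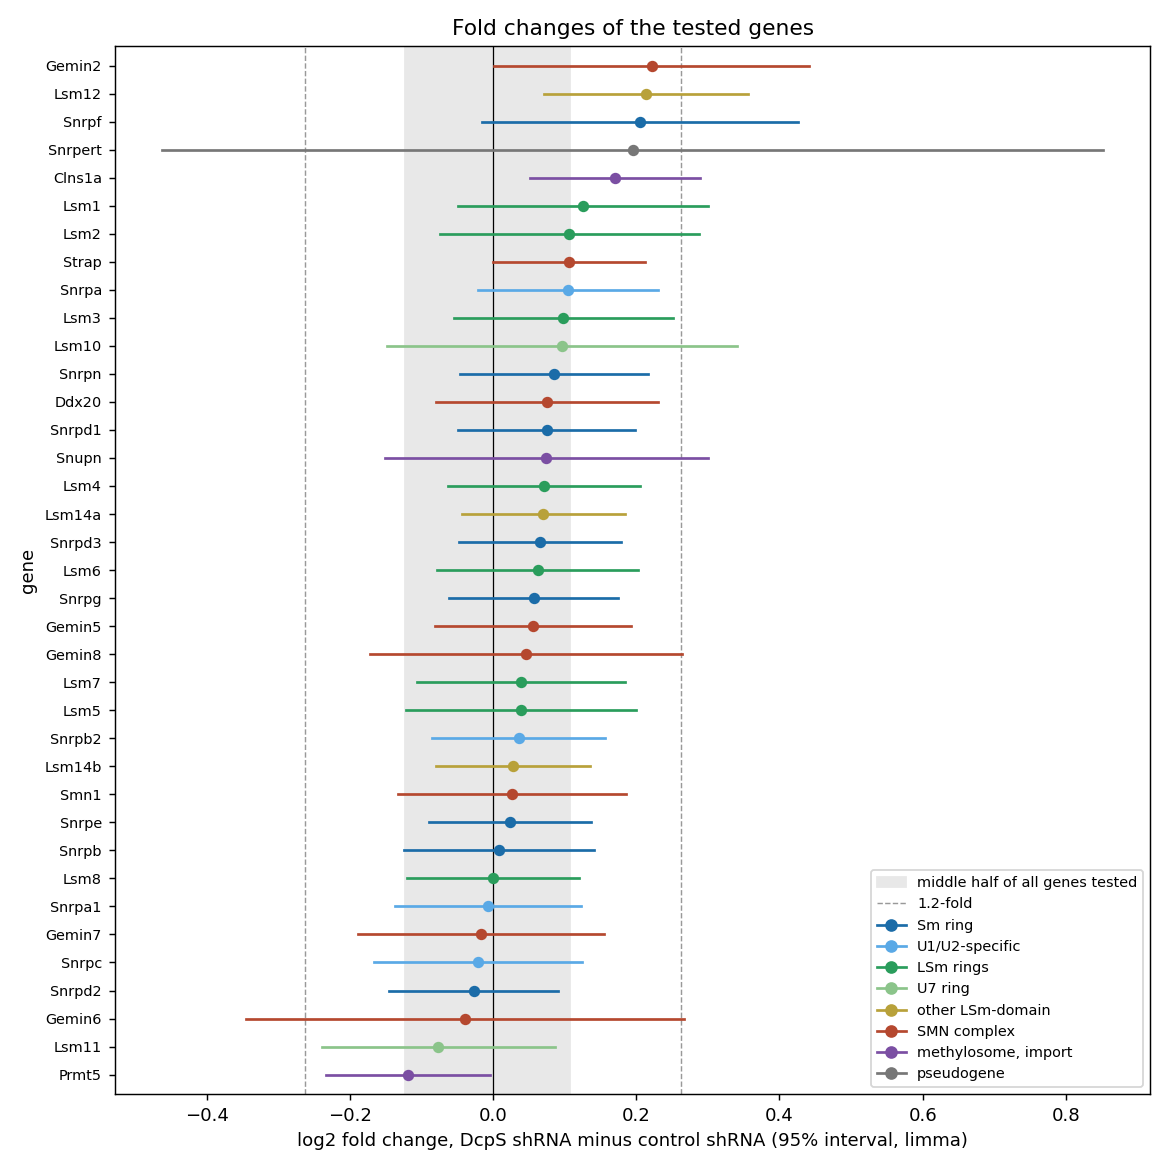
Log2 fold change (DcpS shRNA minus control shRNA) of each tested gene with its 95% limma interval, coloured by role. The grey band is the interquartile range over all genes tested and the dashed lines mark a 1.2-fold change; 26 of the 37 intervals lie inside the dashed lines.

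The intervals limit how large a change could have gone unseen. Of the 37 intervals of 95%, 26 lay within a 1.2-fold change in either direction and 4 within 1.1-fold. All but that of Snrpert lay within 1.5-fold. Those beyond 1.2-fold were Snrpf and Snrpert, Lsm1, Lsm2, Lsm10 and Lsm12, Gemin2, Gemin6 and Gemin8, and Clns1a and Snupn. These are intervals for single genes and are not widened for their number.

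Proteins that work with these particles were described from 10 lists, and a gene on more than 1 list was counted once. Of 105 tested genes outside the 38, 3 were called higher and 3 lower, 5.71% together and close to the 5.79% of all tested genes. The median log2 fold change over the 105 was 0.01. Larp7 binds 7SK and U6 RNA and was higher, at 1106 and 1016 normalised read counts in the controls, compared with 1319 and 1234 after DcpS shRNA (log2 fold change 0.27, SE 0.06). Zcrb1, a protein of the U11/U12 particle, was higher at 0.25 (SE 0.07), and Slbp, which binds the histone mRNA stem-loop processed with U7, at 0.21 (SE 0.06). Lower were Xrn1, the 5′-3′ exonuclease that degrades decapped mRNA (−0.24, SE 0.06), Cpsf2, a subunit of the cleavage machinery (−0.23, SE 0.06), and Prpf8, the central U5 protein (−0.20, SE 0.05).

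These 6 calls had adjusted p-values of 0.0204 (Cpsf2) to 0.0387 (Slbp) (limma, Benjamini-Hochberg). Without control 2 the calls of Prpf8 (adjusted p 0.247), Zcrb1 (0.377), Xrn1 (0.140), Larp7 (0.235) and Slbp (0.321) ended. Without control 1 those of Prpf8 (0.256), Xrn1 (0.0819), Slbp (0.0840) and Cpsf2 (0.244) ended. The call of Xrn1 also ended without DcpS shRNA 2 (0.108) and that of Slbp without DcpS shRNA 1 (0.0583). With DESeq2 1 of the 6, Prpf8, passed (Benjamini-Hochberg adjusted p 0.0452).

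In 5 of the 10 lists no gene was called. Of 13 genes for cap hypermethylation, export and import of the particles, the largest differences were in the cap-binding subunit Ncbp2 (0.16, adjusted p 0.120) and the export adaptor Phax (0.14, adjusted p 0.221; limma, Benjamini-Hochberg). Of the 4 methylosome partners they were in Wdr77, the obligate partner of PRMT5 (0.09), and Coprs (−0.04). Of 14 Integrator genes, which cut the 3′ ends of small nuclear RNA precursors, they were in Ints6 (0.21) and Ints8 (0.14), neither called. Of 18 U1, U2 and SF3 genes they were in U2af2, which binds the polypyrimidine tract (−0.15), and Snrnp70, the U1-70K protein (0.08). Of 3 genes sharing sequence or transcripts with the 38, Smndc1, an SMN-related splicing factor, was at 0.13.

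**Figure D4:**
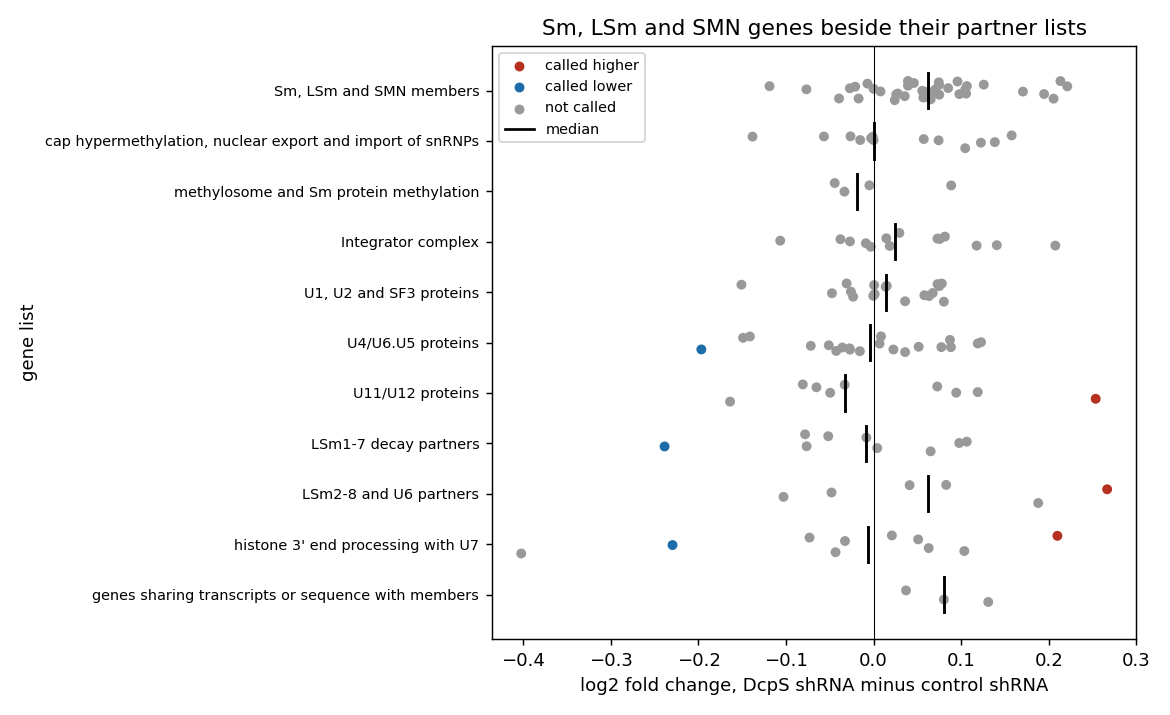
Log2 fold change (DcpS shRNA minus control shRNA) of every tested gene, 1 row per list, with the 37 Sm, LSm and SMN genes in the top row and vertical offsets added for legibility. Red and blue points were called higher and lower, and black bars are medians; no point of the top row is coloured.

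The 7-base words ACGTGCA and CACGTGC, both present in the Dcps transcript, were searched in annotated 3′ UTRs on the mRNA strand, because an earlier analysis of these data had found them often among lower genes. Among tested genes with an annotated 3′ UTR, a word was present in 1097 of 13708 (8.0%). It was present in 214 of the 646 called lower (33.1%) and in 23 of the 368 called higher (6.25%). Because the words were taken up from these same data, those shares are not a separate test, and their cause was not tested. Of the 37 members with an annotated 3′ UTR, 1 held a word (2.70%). The member was Snrpd1, with CACGTGC, and its log2 fold change was 0.07 (SE 0.06). Gemin5 has ACGTGCA in its coding sequence. A match is a description of these letters only.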

How the data were processed

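The deposited table holds 1 value per gene and library, a signal that the authors had scaled per library. The submitters' processing notes name HISAT2 2.2.0, SAMtools 1.3.1, Picard, featureCounts, DESeq2 and the build GRCm38; the sources used here give no annotation, strand setting or treatment of multi-mapping reads. Dividing each column by its lowest value above 0 gave whole numbers (100% within 0.001), taken as reads, 17754768 to 21793685 per library. A count of 0 allows up to 3 reads, 0.138 to 0.169 CPM, for counting error only. The values are called normalised read counts.

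The main test was limma 3.58.1 on log2(normalised read count + 1), with only the group in the model, a mean-variance trend and robust moderation, two-sided, and Benjamini-Hochberg adjusted over 18110 genes that passed edgeR's filterByExpr (minimum count 10). Fold changes are on this scale and understate low genes. An exact permutation test of 2 against 2 cannot go below 0.333, so p-values rest on the spread pooled across genes. On simulated reads for DcpS shRNA against control shRNA (18110 genes) the test recovered 54% of genes changed 1.3-fold and 88% of those changed 2-fold, with 14 of 169 calls false.

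Alternatives used edgeR 4.0.16 and DESeq2 1.42.0 on the recovered reads, other scalings, pseudocounts and filters, each library left out, and the set number as a replicate block. Copies were found with BLAST 2.17.0. The members and lists were chosen with earlier results of these data known. The rule for named genes took every member of each assembly, the 5 with the largest rise, the 5 with the largest fall and the 5 most abundant, and of each partner list those called or else the 2 with the largest difference. Per-library values of the other members, and those of Glod4, Ccdc38, Gm10146 and Gm38393, were added after they were seen.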

Additional observations from a re-analysis of the deposited data

How the results depend on the processing

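The count of Sm, LSm and SMN genes called was 0 with TMM or library-total scaling, pseudocounts of 0.5 and 5, no filter, a mean of at least 50, edgeR and DESeq2. It was 0 to 1 with a library left out, the gene being Snrpn without DcpS shRNA 1 and Lsm12 without DcpS shRNA 2. It was 1, higher, with the replicate block in limma or edgeR (Lsm12, adjusted p 0.0343 and 0.0474), and 0 genes were called lower. With that block, limma called 8.98% and edgeR 7.65% of all tested genes, more than the 5.79% of the main test. Their median log2 fold change ran from 0.03 to 0.08. Of the 37 genes, 22 kept the sign of their log2 fold change under all 14 alternatives. The sign of the other 15 changed. For Lsm8 this was with TMM (−0.0045), library totals (−0.00031), edgeR (−0.0049), DESeq2 (−0.0013) and the block in edgeR (−0.0047). With a library left out the log2 fold changes ran from −0.0025 to 0.15 for Ddx20, −0.21 to 0.13 for Gemin6, −0.067 to 0.032 for Gemin7, −0.031 to 0.12 for Gemin8, −0.013 to 0.14 for Lsm6, −0.021 to 0.10 for Lsm7 and −0.017 to 0.017 for Lsm8. They ran from −0.016 to 0.067 for Smn1, −0.060 to 0.046 for Snrpa1, −0.081 to 0.10 for Snrpb, −0.11 to 0.072 for Snrpc, −0.078 to 0.024 for Snrpd2, −0.00089 to 0.049 for Snrpe, −0.0051 to 0.18 for Snrpn and −0.0012 to 0.15 for Snupn.

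Over all genes, 1048 were called (387 higher, 661 lower). DESeq2 called 448 (137 higher, 311 lower), and the replicate block 1626 (646 higher). With a library left out the counts ran from 747 to 1745, of higher genes from 277 to 637 and of lower genes from 470 to 1108. The partner genes called numbered 6, 1 with DESeq2 and 2 to 8 with a library left out. The cause of these changes was not tested. What the set numbers mark is not stated. Deviations of same-numbered libraries from their group means had a correlation of 0.06 over 13686 genes, with 2 pairs. With 2 libraries per group this cannot show whether the sets are paired.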
